A study of Mus musculus with 65 samples.

Results

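The germline genes described here, 10 of the 24465 gene symbols counted, were followed in RNA and in promoter chromatin of mouse embryonic stem cells before and during differentiation. They are *Dazl*, *Ddx4*, *Mael*, *Stk31*, *Sycp1*, *Sycp3*, *Tex101*, *Stra8*, *Dppa3* and *Taf7l*, chosen by symbol from the count tables as genes known for their use in germ cells, and then looked up in the peak lists of the chromatin libraries. RNA was measured in 17 libraries. Those sequenced in 2020 came from cells of an H3.3K27A line at day 6 and day 0 (2 libraries each), of an H3.3A knockout line at day 6 and day 0 (2 each) and of wild-type cells at day 6 (2) and day 0 (1). Those sequenced in 2019 came from wild-type cells at days 0, 3 and 6 (2 each). Day 0 cells were grown on gelatin in serum with leukaemia inhibitory factor (LIF), which holds them undifferentiated. Day 3 and day 6 samples were embryoid bodies, free-floating aggregates kept in rotation without LIF and with 10 µM all-trans retinoic acid. Both altered lines were made with CRISPR/Cas9, and how many clones each line stands for is not given in the sources used here. Chromatin data cover wild-type cells alone, on days 6 and 0, with antibodies to H3.3K27me3 (trimethylated lysine 27 on the histone variant H3.3), H3, H3.3 and H3K27me3. The names H3 and H3K27me3 are those of the labels, while the deposited data of these libraries are named h31 and h31k27me3. Which form of H3 they measure is thus not settled here. Each antibody and day has 2 libraries, called biological duplicates by the labels, which makes 16 libraries.

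Germline genes are the genes whose products make germ cells, meiosis and small-RNA defence against transposons possible. In somatic cells most of them are silent, held by DNA methylation of CpG-rich promoters, and in embryonic stem cells many are also held by a variant Polycomb complex that contains MGA, MAX and E2F6 and by the H3K9 methyltransferases SETDB1 and G9a. Polycomb repressive complex PRC2 places H3K27me3, a mark of repressed promoters. *Stra8* differs from most of the others in being a direct retinoic acid target, and it opens the way to meiosis in the gonad. *Dppa3* differs in that undifferentiated stem cells also make it.

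The promoters below are shown because the RNA or chromatin of these genes is described most closely here, and they were searched for short words that the transcription factors named above are known to read. They are the 250 bases before the start site in RefSeq (assembly GRCm38.p6), 5′ to 3′ on the strand of the gene. Capitals mark CACGTG, the E-box read by MAX partners, and GCGGGAA, a word read by E2F factors, and in *Stra8* they mark AGGTCA, the core word of nuclear receptors such as those for retinoic acid. *Ddx4* lies at chr13:112652311-112652560 on the minus strand, *Mael* at chr1:166238745-166238994 on the minus strand, *Stk31* (the first of its start sites) at chr6:49395289-49395538 on the plus strand, *Sycp1* at chr3:102936101-102936350 on the minus strand, *Sycp3* at chr10:88459337-88459586 on the plus strand and *Stra8* at chr6:34920698-34920947 on the plus strand.
Ddx4: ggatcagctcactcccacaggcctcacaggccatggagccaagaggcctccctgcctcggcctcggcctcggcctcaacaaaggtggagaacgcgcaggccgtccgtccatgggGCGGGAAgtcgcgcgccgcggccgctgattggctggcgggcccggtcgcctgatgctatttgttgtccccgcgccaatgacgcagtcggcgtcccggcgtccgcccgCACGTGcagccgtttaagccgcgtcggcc
Mael: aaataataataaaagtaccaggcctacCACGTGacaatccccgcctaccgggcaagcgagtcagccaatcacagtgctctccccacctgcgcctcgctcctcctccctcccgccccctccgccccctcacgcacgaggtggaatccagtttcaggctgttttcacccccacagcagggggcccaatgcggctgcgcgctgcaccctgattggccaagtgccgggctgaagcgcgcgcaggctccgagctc
Stk31: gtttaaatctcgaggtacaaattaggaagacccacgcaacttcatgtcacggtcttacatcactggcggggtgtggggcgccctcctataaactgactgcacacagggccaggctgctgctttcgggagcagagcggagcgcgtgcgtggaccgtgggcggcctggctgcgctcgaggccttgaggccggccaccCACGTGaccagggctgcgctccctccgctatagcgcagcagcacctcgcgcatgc
Sycp1: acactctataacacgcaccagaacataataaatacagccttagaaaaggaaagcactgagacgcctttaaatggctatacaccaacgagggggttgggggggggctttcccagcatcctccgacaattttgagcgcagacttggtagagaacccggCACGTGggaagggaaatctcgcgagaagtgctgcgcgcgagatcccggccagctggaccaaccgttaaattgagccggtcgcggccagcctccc
Sycp3: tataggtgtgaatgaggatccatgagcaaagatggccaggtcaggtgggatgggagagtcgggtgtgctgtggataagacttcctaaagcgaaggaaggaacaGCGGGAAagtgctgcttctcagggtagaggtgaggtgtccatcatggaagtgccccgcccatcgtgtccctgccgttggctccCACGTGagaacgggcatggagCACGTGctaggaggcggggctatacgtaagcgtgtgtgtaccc
Stra8: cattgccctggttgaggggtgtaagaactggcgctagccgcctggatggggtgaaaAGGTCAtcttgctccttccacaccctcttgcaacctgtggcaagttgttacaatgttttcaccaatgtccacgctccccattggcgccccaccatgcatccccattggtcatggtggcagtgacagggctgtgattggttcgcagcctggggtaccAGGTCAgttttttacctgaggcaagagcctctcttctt
A sequence was found for 9 of the 10 genes, and *Dppa3* was not among them. CACGTG stood in the promoters of 6 of these 9 genes (*Ddx4*, *Mael*, *Stk31*, *Sycp1*, *Sycp3* and *Taf7l*), against 7.15% of the 32851 promoters of the same 300-base window (250 before and 50 after the start). *Sycp3* held it at 2 places, 64 and 43 bases before its start, and in *Ddx4* it began at position -29. GCGGGAA stood in *Ddx4* and *Sycp3*, against 4.6% of all promoters, and AGGTCA in *Sycp3* and *Stra8*, against 16.3%. Both strands were searched, and no word overlapped another. These matches describe letters and not binding. The *Ddx4* window held 38 CpG, *Stk31* 29, *Dazl* 28, *Mael* 24, *Sycp1* 21, *Tex101* 19, *Taf7l* 17, *Sycp3* 15 and *Stra8* 10, against a median of 7 over all promoters. All 9 were thus above the median, *Ddx4* with more CpG than 95% of promoters and *Stra8* with more than 56.5%.

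The RNA libraries held 14270549 to 22032871 gene counts in 2020 and 6965704 to 12711698 in 2019. Levels are CPM, which are counts scaled to the size of the library after TMM scaling, done within each year, so that levels set side by side across years are not on 1 scale. *H3f3a*, the gene that encodes H3.3A, stood at 20.4 to 24.2 CPM in the libraries of the H3.3K27A line, at 20.9 to 23.1 CPM in the H3.3A knockout line and at 114 to 129 CPM in wild-type cells of 2020, so the H3.3K27A libraries share the low *H3f3a* of the knockout. *H3f3b*, which encodes the same protein, stood at 499 to 599 CPM in H3.3K27A cells, 871 to 1133 CPM in knockout cells and 796 to 893 CPM in wild-type cells. The 2 knockout libraries of day 6 stood apart from each other, with a chi-square per degree of freedom of 47.0 between their counts, against 2.30 to 8.32 in the other pairs. Since all groups of a year share 1 estimate of the spread, results of 2020 are also given without these 2 libraries wherever that moves a call. Stem cell markers (7 genes such as *Pou5f1* and *Nanog*) summed to 4862 to 5870 CPM at day 0, 552 to 553 CPM at day 3 and 165 to 420 CPM at day 6. Day 6 knockout libraries held more endoderm marker RNA (6 genes, 673 to 1316 CPM) than the day 6 libraries of H3.3K27A and wild-type cells of 2020 (376 to 489 CPM). A list of 6 germ cell markers, of which *Dazl* and *Ddx4* are themselves among the 10 genes, had 4 markers at a mean of 1 CPM or more in every group (*Kit*, *Piwil2*, *Dazl* and *Ddx4*), while *Nanos2* and *Nanos3* averaged at most 0.148 CPM. At day 6 of 2020 this list summed to 73.7 to 91.9 CPM in H3.3K27A cells, 223 to 279.5 CPM in knockout cells, where *Kit* alone averaged 228 CPM, and 107 to 116 CPM in wild-type cells, against 298.1 to 304.7, 277.7 to 277.9 and 265 CPM at day 0, and in 2019 it summed to 152 to 154 CPM at day 0, 267 to 269 CPM at day 3 and 158 to 172 CPM at day 6. Markers of gonadal support cells (6 genes) summed to 245 to 276 CPM in H3.3K27A cells, 95.3 to 113 CPM in knockout cells and 171 to 187 CPM in wild-type cells at day 6, against 13.6 to 14.8, 17.5 to 17.8 and 25.1 CPM at day 0, and in 2019 to 3.69 to 7.68 CPM at day 0, 93.4 to 93.5 CPM at day 3 and 206.7 to 217 CPM at day 6. *Sox9* and *Wt1*, which other tissues also use, made up most of that sum after day 0, 3 to 4 of the 6 averaged 1 CPM or more then and 1 to 2 at day 0, and *Amh* and *Nr5a1* stayed under 1 CPM in every library. The part of these markers in the results was not tested. In bulk RNA, fewer cells that use a gene and less of its RNA per cell cannot be told apart.

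The time course of 2019 asked how wild-type cells change between days 0, 3 and 6. Of the 10 genes, 9 had enough counts to test. At day 3 against day 0, 7 of these rose and 2 fell, and at day 6 against day 3 all 9 fell, so that day 3 was the high point for *Dazl*, *Ddx4*, *Mael*, *Stk31*, *Sycp1*, *Stra8* and *Taf7l*, while *Sycp3* and *Dppa3* declined at both steps. Calls rest on an adjusted p under 0.05 in edgeR's quasi-likelihood test with Benjamini-Hochberg adjustment over all genes tested. Calls were common at these steps, at 71.4% of the 13593 genes tested for day 3 against day 0 (37.6% higher, 33.8% lower) and 57.3% for day 6 against day 3 (29.4% higher, 27.9% lower). The median change of the 9 genes was 1.06 on the log2 scale for day 3 against day 0 and -1.38 for day 6 against day 3, beside medians of 0.06 and -0.01 over all genes. The 9 genes kept these calls in all 12 alternatives tried at each step. Markers of 2-cell-like cells (6 genes such as *Zscan4c*), a rare state of stem cell cultures that uses early embryonic genes, summed to 0.749 to 0.803 CPM at day 0, 16.8 to 19.8 CPM at day 3 and 8.86 to 9.37 CPM at day 6, and their part in the result was not tested.

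**Figure D1:**
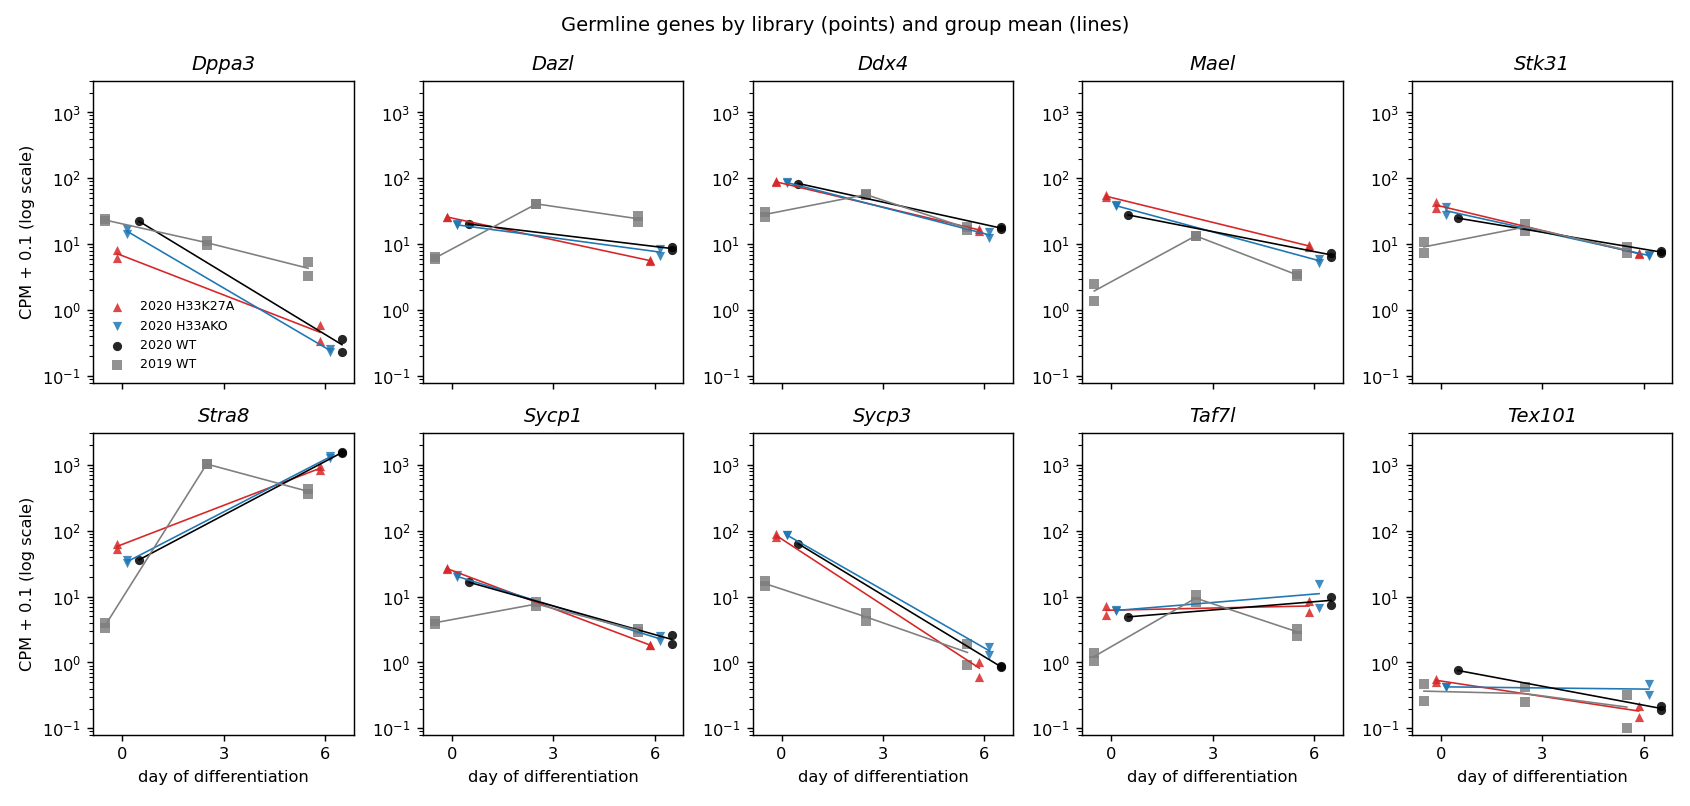
Level of each of the 10 genes by day of differentiation; the x axis is the day (0, 3 or 6) and the y axis CPM with 0.1 added, on a log scale. Points are libraries and lines join group means, in red for H3.3K27A, blue for H3.3A knockout and black for wild-type cells of 2020, and in grey for wild-type cells of 2019; *Stra8* climbs in all 4 series, the grey series peaks at day 3 in 7 of the 9 genes tested, and the 2020 series of *Sycp3* and *Dppa3* end lowest relative to their day 0 level.

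*Stra8*, the gatekeeper of meiosis, had 3.85 and 3.28 CPM at day 0, 1023 and 1026 CPM at day 3 and 357 and 430 CPM at day 6. Day 3 libraries were above all others and day 0 libraries below all others, with no overlap. The change was 8.19 ± 0.14 (log2, SE) for day 3 against day 0 (adjusted p = 4.85e-13), and *Stra8* fell by 1.38 ± 0.08 at day 6 against day 3 (adjusted p = 2.99e-08). At day 6 it was still 6.81 ± 0.14 above day 0 (adjusted p = 7.17e-13).

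Genes that act earlier in germ cell life followed the same course at lower amplitude. *Dazl*, an RNA-binding protein that licenses germ cells for sexual development, had 6.26 and 5.90 CPM at day 0, 40.4 and 41.5 CPM at day 3 and 21.9 and 26.8 CPM at day 6. The 3 days did not overlap; *Dazl* rose by 2.76 ± 0.15 at day 3 against day 0 (adjusted p = 5.21e-09), fell by 0.76 ± 0.11 at day 6 against day 3 (adjusted p = 0.000106) and kept a difference of 2.00 ± 0.16 at day 6 against day 0 (adjusted p = 1.00e-07). *Ddx4*, the RNA helicase VASA of germ granules, had 25.7 and 30.7 CPM at day 0, 55.8 and 57.6 CPM at day 3 and 16.7 and 18.2 CPM at day 6. It thus ended below its start, with a change of 0.99 ± 0.11 for day 3 against day 0 and of -0.71 ± 0.12 for day 6 against day 0 (adjusted p = 3.21e-06 and 0.000126).

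*Mael*, a component of germ granules that acts in piRNA silencing of transposons, had 1.28 and 2.43 CPM at day 0, 13.3 and 13.4 CPM at day 3 and 3.47 and 3.20 CPM at day 6. Its rise at day 3 was 2.74 ± 0.25 against day 0 (adjusted p = 7.00e-07). Day 6 libraries still lay above those of day 0, by 0.75 ± 0.31 (adjusted p = 0.0411), but this call was lost in 6 of 12 alternatives, among them DESeq2 (adjusted p = 0.101) and the fit without the first day 0 library (0.44, adjusted p = 0.224). The authors' deposited table likewise gives *Mael* a log2 change of 0.58 for day 6 over day 0 with an adjusted p of 0.131.

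*Taf7l*, an X-linked germ cell relative of the general transcription factor subunit TAF7, had 0.963 and 1.31 CPM at day 0, 8.25 and 10.5 CPM at day 3 and 3.17 and 2.47 CPM at day 6. The days did not overlap, and the change was 2.98 ± 0.31 for day 3 against day 0 (adjusted p = 1.91e-06). For day 6 against day 0 it was 1.26 ± 0.37 (adjusted p = 0.00675), a call lost without the first day 6 library (1.07, adjusted p = 0.0547) and when all 17 libraries were fitted together (adjusted p = 0.0508). *Stk31*, a Tudor-domain kinase of male germ cells, had 10.8 and 7.30 CPM at day 0, 20.5 and 16.0 CPM at day 3 and 7.30 and 8.86 CPM at day 6. Only its day 3 libraries stood clear, with a change of 1.06 ± 0.20 for day 3 against day 0 (adjusted p = 0.000466), while day 6 and day 0 overlapped (-0.12 ± 0.23, adjusted p = 0.640).

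*Sycp1* and *Sycp3*, parts of the synaptonemal complex, the protein zipper between paired meiotic chromosomes, changed in opposite directions at day 3 against day 0. *Sycp1*, its transverse filament, had 3.69 and 4.12 CPM at day 0, 8.17 and 7.05 CPM at day 3 and 2.80 and 3.11 CPM at day 6, with a rise of 0.94 ± 0.23 at day 3 against day 0 (adjusted p = 0.00248) and no call for day 6 against day 0 (-0.42 ± 0.26, adjusted p = 0.156). *Sycp3*, of its lateral elements, had 17.2 and 14.2 CPM at day 0, 5.50 and 4.12 CPM at day 3 and 0.812 and 1.83 CPM at day 6. Its libraries fell into 3 separate ranges, and *Sycp3* fell by 1.69 ± 0.24 at day 3 against day 0 (adjusted p = 3.86e-05) and by 3.60 ± 0.30 at day 6 against day 0 (adjusted p = 1.86e-07). The 3′ end of *Sycp3* overlaps *Chpt1* on the other strand, and whether counting used strand is not given in the sources used here, so part of its counts is uncertain. Reads of *Sycp1* and *Dppa3* can also be shared with their pseudogenes.

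*Dppa3* (Stella), which protects the maternal genome from demethylation in the zygote and is made in primordial germ cells and in naive stem cells, had 22.5 and 24.0 CPM at day 0, 11.2 and 9.75 CPM at day 3 and 3.17 and 5.30 CPM at day 6. It fell by 1.15 ± 0.18 at day 3 and by 2.49 ± 0.21 at day 6 against day 0 (adjusted p = 8.17e-05 and 1.63e-07). The sum of the stem cell markers went the same way but fell by more. In 2019 it was 5040 to 5363 CPM at day 0, 552 to 553 CPM at day 3 and 245 to 251 CPM at day 6. The part of that sum in the change of *Dppa3* was not tested. *Tex101*, a surface protein of germ cells, was left out of the 2019 tests for low counts. It had 1 and 4 counts at day 0, 4 and 2 at day 3 and 3 and 0 at day 6, so the ratio for day 6 over day 0 was 0.414 (95% counting interval 0.0643 to 2.13). No difference in *Tex101* was detectable at this depth.

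Over the whole 6 days of 2019, 4 of the 9 genes were higher at day 6 than at day 0 (*Dazl*, *Mael*, *Stra8* and *Taf7l*) and 3 were lower (*Ddx4*, *Sycp3* and *Dppa3*), beside 78% of all genes called (41.4% higher, 36.6% lower). The authors' deposited table has the same sign for all 9, with 6.94 for *Stra8*, 2.03 for *Dazl*, -2.67 for *Sycp3* and -2.41 for *Dppa3*.

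In the wild-type cells of 2020, the same 6 days left *Stra8* higher and 8 of the 10 genes lower. *Dazl*, *Ddx4*, *Mael*, *Stk31*, *Sycp1*, *Sycp3*, *Tex101* and *Dppa3* all fell, and *Taf7l* was not called. Over all 14760 genes tested, 70.8% were called (36% higher, 34.8% lower), and the median change was -2.14 for the 10 genes beside 0.08 over all. Day 0 has 1 wild-type library here, which is assumed to vary like the other groups.

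*Sycp3* had 0.770 and 0.741 CPM at day 6, against 62.9 CPM at day 0. The change was -6.37 ± 0.19 on the log2 scale (adjusted p = 1.21e-08), or 82.5-fold lower. *Dppa3* had 0.270 and 0.131 CPM at day 6, against 22.2 CPM at day 0, and its 10 day 6 counts against 406 put the ratio at 0.00919 (95% counting interval 0.00438 to 0.0171). Both genes were near the detection limit at day 6.

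Smaller losses were seen in the germ granule genes and in *Sycp1*, *Stk31* and *Dazl*. *Ddx4* had 16.7 and 18.3 CPM at day 6, against 83.5 CPM at day 0 (-2.26 ± 0.12, adjusted p = 2.24e-07). *Mael* had 6.31 and 7.32 CPM at day 6, against 27.8 CPM at day 0 (-2.03 ± 0.13, adjusted p = 7.97e-07). *Sycp1* had 2.503 and 1.79 CPM at day 6, against 16.4 CPM at day 0 (-2.93 ± 0.20, adjusted p = 9.59e-07). In each of these genes both day 6 libraries lay far under the day 0 library. *Stk31* had 7.70 and 7.41 CPM at day 6, against 24.9 CPM at day 0 (-1.72 ± 0.18, adjusted p = 1.76e-05), and *Dazl* had 9.01 and 8.06 CPM at day 6, against 20.2 CPM at day 0 (-1.24 ± 0.17, adjusted p = 9.79e-05). *Tex101* had 5 counts over both day 6 libraries, against 12 in the day 0 library (-2.61 ± 0.62, adjusted p = 0.00372), and DESeq2 did not call it (adjusted p = 0.0650).

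*Stra8* went the other way, with 1505 and 1556 CPM at day 6, against 36.0 CPM at day 0. The change was 5.41 ± 0.18 (adjusted p = 1.68e-08), or 42.5-fold. *Taf7l* had 7.43 and 9.89 CPM at day 6, against 4.82 CPM at day 0, which was no call (0.84 ± 0.47, adjusted p = 0.133). Without the 2 day 6 knockout libraries its change of 0.88 was called (adjusted p = 0.00684), and the other 9 calls stood.

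Per kilobase of exon, the day 0 wild-type library of 2020 ranked the levels as *Sycp3* (56.1 CPM per kb), *Ddx4* (29.3), *Dppa3* (27.2), *Stra8* (24.5), *Mael* (18.0), *Stk31* (7.58), *Dazl* (6.82), *Sycp1* (4.78), *Taf7l* (2.49) and *Tex101* (0.624). A single library gives no spread for this order. At day 6 the mean levels ranked as *Stra8* (1042 CPM per kb), *Ddx4* (6.14), *Taf7l* (4.48), *Mael* (4.41), *Dazl* (2.88), *Stk31* (2.30), *Sycp3* (0.673), *Sycp1* (0.624), *Dppa3* (0.245) and *Tex101* (0.0961). *Taf7l* overlapped *Mael* there, and *Sycp3* overlapped *Sycp1*.

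The change from day 0 to day 6 differed between the wild-type cells of 2020 and those of 2019 for 8 of the 10 genes, always towards a lower value in 2020. In an edgeR fit of both years with the difference of the changes as the contrast, 29.5% of 15343 genes were called (9.82% higher, 19.7% lower), with a median of -0.13 over all genes and of -2.06 over the 10. The difference was -4.25 ± 0.48 for *Dppa3*, -3.26 ± 0.22 for *Dazl*, -2.79 ± 0.29 for *Mael* and -2.77 ± 0.44 for *Sycp3*, with adjusted p-values of 2.47e-05, 2.92e-07, 1.15e-05 and 0.000368. It was -2.52 for *Sycp1*, -1.60 for *Stk31*, -1.56 for *Ddx4* and -1.41 for *Stra8*. *Taf7l* (-0.44) and *Tex101* (-1.39) were not called. The 8 calls stood in all 21 alternatives, 16 of which left out 1 library each. The single wild-type day 0 library of 2020, on which the contrast rests, could not be left out.

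Part of these differences lay at day 0, within the limit that each year was scaled on its own. *Mael* stood at 27.8 CPM in the 2020 library of wild-type day 0 cells, against 1.28 and 2.43 CPM in 2019, *Sycp3* at 62.9 CPM, against 17.2 and 14.2 CPM, and *Stra8* at 36.0 CPM, against 3.85 and 3.28 CPM. *Dppa3* stood at 22.2 CPM in 2020, against 22.5 and 24.0 CPM in 2019, so its difference lay at day 6. The markers of 2-cell-like cells moved the same way, with a sum of 7.996 CPM in wild-type day 0 cells of 2020, against 0.749 and 0.803 CPM in 2019, and their part in the result was not tested. Neural markers (6 genes) summed to 187 to 307 CPM in wild-type day 6 cells of 2020, against 1004 to 1155 CPM in 2019, and their part was not tested either. The share of reads outside genes was 11.3 to 16.8% in 2020 and 25.7 to 43.3% in 2019. Year, sequencing batch and culture cannot be told apart.

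The H3.3K27A and knockout lines asked whether cells with altered H3.3 carry out the same changes. They did so in direction: *Stra8* rose in both lines, 8 of 10 genes fell in H3.3K27A cells and 7 of 10 in knockout cells. Over all genes 76.7% were called in H3.3K27A cells (39.5% higher, 37.2% lower) and 77.2% in knockout cells (40.8% higher, 36.4% lower). *Sycp3* had 0.511 and 0.931 CPM in H3.3K27A cells at day 6, against 80.3 and 87.6 CPM at day 0, and 1.20 and 1.60 CPM in knockout cells at day 6, against 85.5 and 86.9 CPM at day 0. The change was -6.89 ± 0.18 in H3.3K27A cells, -5.92 ± 0.17 in knockout cells and -6.37 ± 0.19 in wild-type cells. *Tex101* in H3.3K27A cells rests on 4 counts at day 6, against 12 at day 0, and DESeq2 did not call it (adjusted p = 0.0723). The genes not called were *Taf7l* in both lines and *Tex101* in knockout cells, where it had 12 counts over both day 6 libraries, against 11 over both day 0 libraries. *Taf7l* had 15.2 and 6.69 CPM in knockout cells at day 6, against 5.86 and 6.24 CPM at day 0 (0.85, adjusted p = 0.0569), and was called in 4 of 17 alternatives, among them DESeq2 (adjusted p = 0.0418) and the fit without the second day 6 library (1.33, adjusted p = 9.84e-05). The median change of the 10 genes was -2.45 in H3.3K27A cells and -2.46 in knockout cells, beside 0.07 and 0.11 over all genes.

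**Figure D2:**
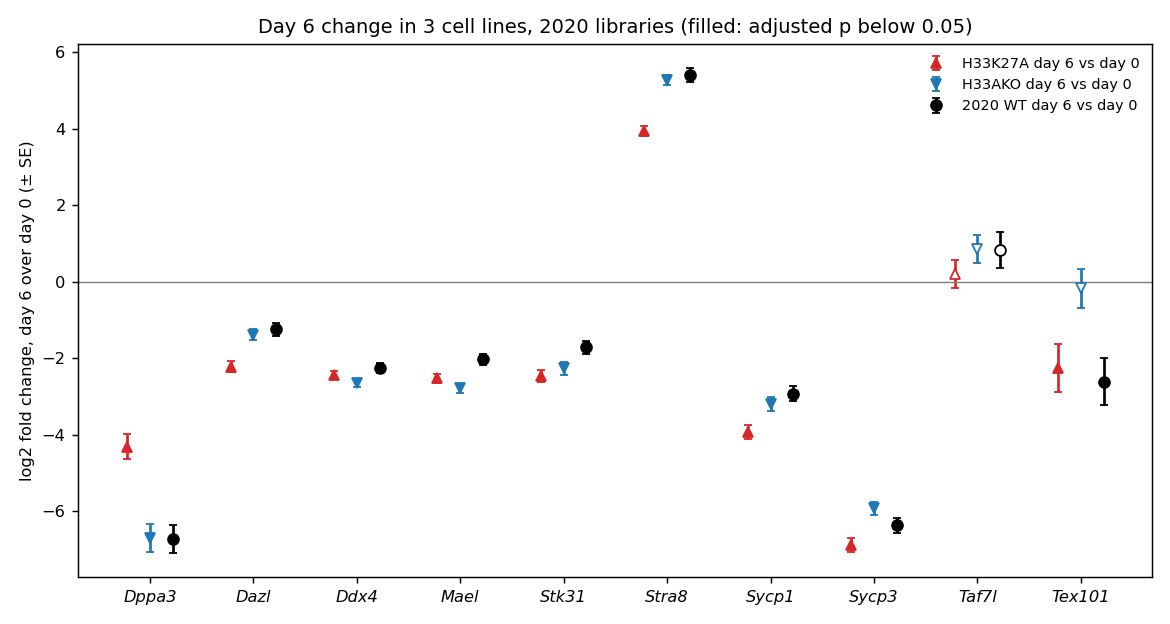
Log2 change for day 6 against day 0 of each gene in H3.3K27A, H3.3A knockout and wild-type cells of 2020; points are edgeR estimates and bars are SE. The 3 cell lines lie near each other for most genes; *Stra8* is lowest in H3.3K27A cells (3.94), and *Dppa3* falls least there (-4.31).

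Among the 10 genes, *Stra8* was the 1 whose change was called different in H3.3K27A cells from both other lines. It had 823 and 944 CPM in H3.3K27A cells at day 6, against 51.9 and 63.2 CPM at day 0. Knockout cells had 1256 and 1374 CPM at day 6, against 35.7 and 31.9 CPM at day 0, and wild-type cells had 1505 and 1556 CPM at day 6, against 36.0 CPM at day 0. H3.3K27A cells were thus lowest at day 6 and highest at day 0, with no overlap with either of the other lines on either day. The rise was 3.94 ± 0.12 in H3.3K27A cells, 5.28 ± 0.13 in knockout cells and 5.41 ± 0.18 in wild-type cells. The difference of the rises was -1.47 ± 0.18 for H3.3K27A against wild-type cells (adjusted p = 0.00779) and -1.34 ± 0.16 for H3.3K27A against knockout cells (adjusted p = 0.00273). Both calls stood in all 17 alternatives, where the differences ran from -1.60 to -1.32 and from -1.48 to -1.20. The difference against wild-type cells rests on 1 wild-type day 0 library, which could not be left out.

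Taken day by day, *Stra8* at day 6 was lower in H3.3K27A cells than in wild-type cells by 0.79 on the log2 scale (adjusted p = 0.00973) and lower than in knockout cells by 0.57 (adjusted p = 0.00631). At day 0 it was higher in H3.3K27A cells than in knockout cells, by 0.77 ± 0.12 (adjusted p = 0.0179), and the difference of 0.67 ± 0.15 from wild-type cells was not called (adjusted p = 0.0578). That difference was called in 6 of 17 alternatives, among them DESeq2 (adjusted p = 0.00138), no low-count filter and the fit without the 2 day 6 knockout libraries (0.69, adjusted p = 0.00201). The day 6 call against wild-type cells was lost without any 1 of the 4 libraries compared (adjusted p up to 0.179), the day 0 call against knockout cells without any 1 of its 4 (adjusted p up to 0.182) and the day 6 call against knockout cells without the first H3.3K27A library (adjusted p = 0.0864).

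*Dppa3* had 0.236 and 0.490 CPM in H3.3K27A cells at day 6, against 6.17 and 8.05 CPM at day 0. Knockout cells had 0.157 and 0.133 CPM at day 6, against 17.1 and 14.1 CPM at day 0. The day 6 over day 0 ratio was 0.0497 in H3.3K27A cells (95% counting interval 0.0279 to 0.0829), 0.00930 in knockout cells (0.00340 to 0.0204) and 0.00919 in wild-type cells. The difference of the changes, 2.42 ± 0.60 for H3.3K27A against wild-type cells, was not called (adjusted p = 0.127), but was called without the 2 day 6 knockout libraries (2.39, adjusted p = 0.0392). Against knockout cells the difference of the changes was 2.39 ± 0.63 and not called (adjusted p = 0.0624), and it was called in 3 of 17 alternatives, namely DESeq2 (adjusted p = 0.0400), no low-count filter (adjusted p = 0.0266) and the fit of all 17 libraries (adjusted p = 0.0437). At day 0 itself *Dppa3* was lower in H3.3K27A than in wild-type cells by 1.65 ± 0.26 (adjusted p = 0.0166), a call lost without either H3.3K27A library of that day and with the replicate number as a block (adjusted p = 0.0698).

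*Mael* had 52.0 and 55.1 CPM in H3.3K27A cells at day 0, 37.4 and 39.3 CPM in knockout cells and 27.8 CPM in wild-type cells. The 3 lines did not overlap, and H3.3K27A cells were above wild-type cells by 0.94 ± 0.14 (adjusted p = 0.0104), a call lost without either H3.3K27A library. At day 6 *Mael* had 9.12 and 9.56 CPM in H3.3K27A cells, 5.18 and 5.90 CPM in knockout cells and 6.31 and 7.32 CPM in wild-type cells, and H3.3K27A cells were above knockout cells by 0.75 ± 0.12 (adjusted p = 0.00346), a call kept in all 18 alternatives. *Dazl* had 5.66 and 5.49 CPM in H3.3K27A cells at day 6, against 26.1 and 25.8 CPM at day 0, and 6.54 and 8.51 CPM in knockout cells at day 6, against 19.3 and 20.1 CPM at day 0. Its change differed by -0.84 ± 0.20 between these lines (adjusted p = 0.0469), a call lost in 9 of 17 alternatives. *Sycp3* at day 6 was lower in H3.3K27A than in knockout cells by 1.00 ± 0.27 (adjusted p = 0.0310), a call lost in 6 of 18.

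In counts, H3.3K27A against wild-type cells gave 2 calls among the 10 genes at day 0 (*Mael* higher, *Dppa3* lower), beside 1.73% of all genes (0.569% higher, 1.17% lower). At day 6 it gave 1 (*Stra8* lower), beside 2.04% (1.13% higher, 0.908% lower), and for the change 1, beside 0.766% (0.549% higher, 0.217% lower). H3.3K27A against knockout cells gave 1 call at day 0, beside 1.27% (0.461% higher, 0.806% lower), 3 at day 6, beside 18.7% (9.03% higher, 9.64% lower), and 2 for the change, beside 5.39% (3.23% higher, 2.16% lower). Knockout against wild-type cells gave none in edgeR. The share over all genes was 0.122% at day 0 (0.0271% higher, 0.0949% lower), 11.4% at day 6 (6.98% higher, 4.42% lower) and 0.0813% for the change (0.0407% higher, 0.0407% lower). DESeq2 also called none there. In edgeR 2, 4 and 4 of the 10 genes had an unadjusted p below 0.05. The shares above are of adjusted calls and are no background for these counts, from which nothing is concluded. The nearest were *Sycp3* at day 6 (0.90 ± 0.26, adjusted p = 0.0565) and *Ddx4* at day 6 (-0.34 ± 0.11, adjusted p = 0.0799). The counts that follow come from other fits, in which the share over all genes can differ. The shares above are thus no background for these counts, and nothing is concluded from the counts for the genes as a set. Without both day 6 knockout libraries, H3.3K27A against wild-type cells gave 6 calls at day 0 (*Mael*, *Stk31*, *Sycp1*, *Sycp3* and *Stra8* higher, *Dppa3* lower), 3 at day 6 (*Mael* higher, *Dazl* and *Stra8* lower) and 4 for the change. H3.3K27A against knockout cells gave 5 at day 0, and knockout against wild-type cells gave 1 at day 0 (*Sycp3*, 0.45). With the first of these libraries alone left out, knockout against wild-type cells at day 6 gave 1 call (*Sycp3*), and with the second alone left out it gave 3 (*Taf7l* higher, *Ddx4* and *Stra8* lower) and 2 for the change (*Ddx4* and *Mael*). H3.3K27A against knockout cells gave 4 calls at day 6 without either library, and 3 or 4 for the change.

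In wild-type chromatin, a promoter was counted as marked when a peak of the authors' filtered list reached within 1 kb of its start site in both duplicates. Enrichment is the authors' ratio of a peak's pileup to the genome-wide mean, with no control library. H3.3K27me3 marked 1 of the 10 promoters at day 6 (*Sycp1*) and 4 at day 0 (*Ddx4*, *Mael*, *Sycp1* and *Dppa3*), beside 2.77% of 23369 genes at day 6 and 11.6% at day 0. H3K27me3 marked 1 at day 6 (*Dppa3*) and the same 4 at day 0, beside 11.5% and 18.5%. H3.3 marked 3 at day 6 (*Dazl*, *Stk31* and *Dppa3*) and 4 at day 0 (*Ddx4*, *Sycp1*, *Sycp3* and *Dppa3*), beside 26% and 38.3%. H3 itself marked none at day 6, as a count of peaks and with no test, and 2 at day 0 (*Stk31* and *Dppa3*), beside 2.19% and 5.55%. The H3.3K27me3 libraries of day 6 kept 30.45 and 34.20 megatags (M tags) after filtering, per the file headers, against 71.13 and 49.87 megatags at day 0, and the part of this depth in the lower count at day 6 was not tested. The lowest enrichment in their filtered lists was 2.58 in each duplicate at day 6, against 2.09 and 2.37 at day 0. Weaker peaks could thus be counted at day 0 alone, and the part of this in the lower count was not tested.

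**Figure D3:**
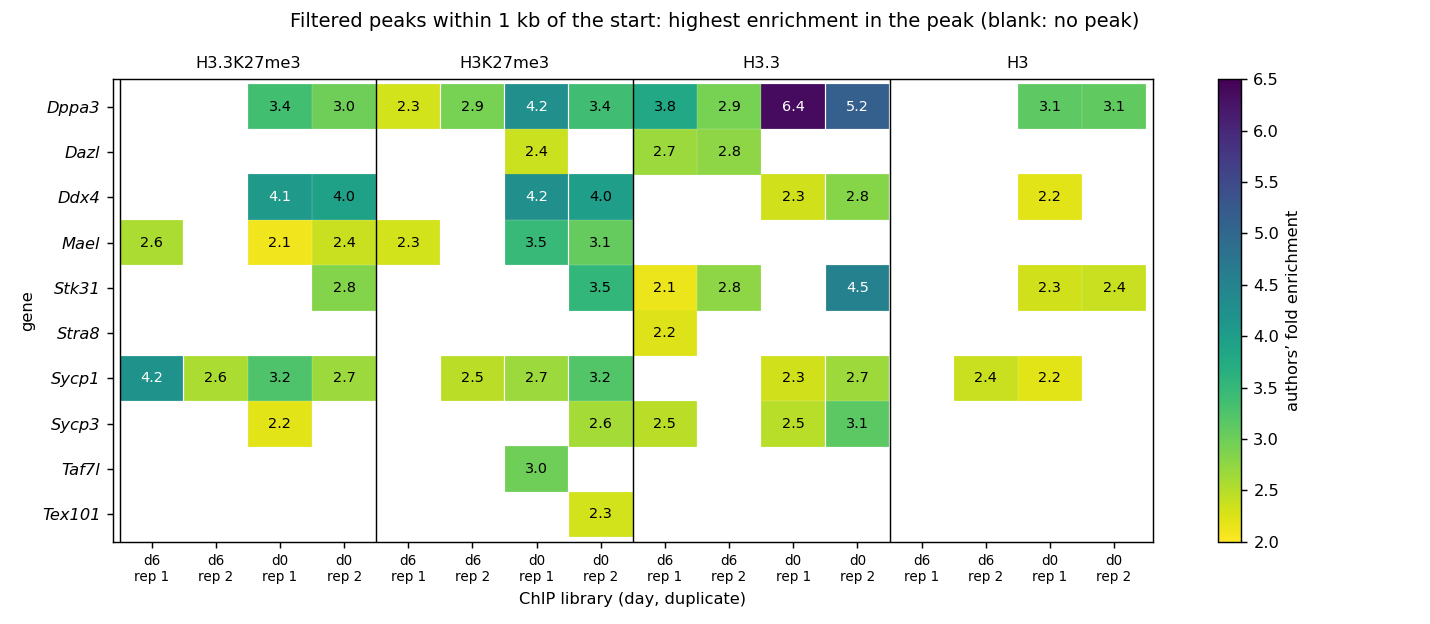
Enrichment of the filtered peak within 1 kb of each gene's start, as a grid with genes as rows and ChIP libraries as columns. For each antibody the duplicates of day 6 stand left of those of day 0. Each coloured cell holds the value, and a blank cell means no such peak. *Ddx4* has H3.3K27me3 and H3K27me3 values near 4 at day 0 and none at day 6. *Dppa3* has the highest H3.3 values (6.36 and 5.16 at day 0).

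At *Ddx4* both K27me3 antibodies gave filtered peaks at day 0 in both duplicates and at day 6 in neither. Its promoter, shown above with an E-box and an E2F word, had no filtered H3.3K27me3 peak at day 6, and at day 0 peaks of 7.17 and 8.42 kb with an enrichment of 4.07 and 3.95. H3K27me3 peaks at day 0 reached 4.25 and 4.00, and again no filtered peak was there at day 6. The highest summits of these peaks lay at 0.51 and -0.80 kb from the start for H3.3K27me3 and at -0.74 and -0.68 kb for H3K27me3, where minus is upstream. The last 3 peaks also had a lower summit just inside the gene, at 0.49, 0.53 and 0.65 kb, with an enrichment of 3.16, 2.67 and 2.46. Among all calls before the authors' filter, H3.3K27me3 at day 6 had 1 weaker call, of 2.11, and H3K27me3 had calls of 1.87 and 2.15. *Ddx4* was the 1 promoter of the 10 marked by H3.3K27me3 at day 0 when an enrichment of at least 3 was asked for in both duplicates. Over all 23369 genes the share at this setting was 2.1%.

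*Sycp1* held H3.3K27me3 on both days, with an enrichment of 4.23 and 2.58 at day 6, against 3.25 and 2.68 at day 0. The day 6 peaks were 46.7 and 13.4 kb long, with highest points 3.46 and 9.50 kb inside the gene. At day 0 they lay 1.13 and 3.38 kb inside it, and a lower summit of each peak stood 0.15 and 0.19 kb before the start. H3K27me3 at *Sycp1* had a peak in 1 duplicate at day 6 (2.46), against both at day 0 (2.67 and 3.23). *Mael* had an H3.3K27me3 peak in 1 duplicate at day 6 (2.58), against both at day 0 (2.09 and 2.37), and an H3K27me3 peak in 1 duplicate at day 6 (2.30), against both at day 0 (3.46 and 3.07). Each H3.3K27me3 value of *Mael* was the lowest kept in its list, as was the 2.58 of *Sycp1* at day 6. The day 0 peaks of *Mael* would have been too weak for either day 6 list. The highest points of the H3K27me3 peaks of *Mael* at day 0 lay at -13.32 and -16.29 kb from its start, which is upstream.

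*Dppa3* sits in very long peaks. Its H3.3 peaks spanned 186 and 53.4 kb at day 6, against 292 and 310 kb at day 0. At day 0 the span of both peaks covered *Nanog*, *Gdf3*, *Slc2a3* and *Apobec1*. At day 6 the 186 kb peak covered these genes, and the 53.4 kb peak of the other duplicate covered none of them. H3K27me3 there was 2.30 and 2.92 at day 6, against 4.25 and 3.38 at day 0, and H3.3K27me3 had no filtered peak at day 6, against 3.37 and 3.00 at day 0. The H3 antibody alone also gave 3.11 and 3.09 at day 0, so all 4 antibodies had peaks here on that day. The remaining promoters had less. *Stk31* had H3.3 peaks in both duplicates at day 6 (2.13 and 2.76), against 1 duplicate at day 0 (4.54). It had H3.3K27me3 and H3K27me3 peaks in 1 duplicate at day 0 (2.84 and 3.53), *Sycp3* likewise (2.21 and 2.61), *Dazl*, *Tex101* and *Taf7l* had H3K27me3 in 1 duplicate at day 0 (2.36, 2.31 and 2.99), and *Stra8* had an H3.3 peak in 1 duplicate at day 6 (2.24). At *Stra8* no filtered peak for either K27me3 antibody was found on either day.

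The authors' deposited tables of differential regions measure reads over a region in each duplicate, scaled between libraries, and give a log2 difference that runs as day 0 minus day 6. For H3K27me3, 5 regions lay over these promoters, and 4 of them passed a false discovery rate of 0.05 in the authors' deposited table, all lower at day 6, beside 33% of 10491 regions (30.5% higher at day 0). The region of *Ddx4* had 573.86 and 538.04 scaled reads at day 6, against 736 and 812.5 at day 0 (day 0 minus day 6 0.48, FDR 2.79e-05, in the authors' deposited table). *Mael* had 884.44 and 897.38 at day 6, against 1170 and 1231.88 at day 0 (0.43, FDR 4.04e-06, authors' deposited table). In both regions the days did not overlap, and the sign means less H3K27me3 at day 6. The regions are 20.5 kb (*Ddx4*) and 32.7 kb (*Mael*) long and also hold the starts of *Slc38a9* and *Ildr2*, in that order. They do not measure the promoters of *Ddx4* and *Mael* alone. *Dppa3* (0.23, FDR 0.000479) and *Sycp1* (0.20, FDR 0.0323) had smaller differences of the same sign, and *Dazl* (0.13, FDR 0.369) was not past the threshold in the authors' deposited table.

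For H3.3, 4 of 7 regions passed in the authors' deposited table, beside 50.4% of 14812 regions (36.4% higher at day 0), and all 4 were lower at day 6. *Stk31* had 827.41 and 825.13 scaled reads at day 6, against 1162.35 and 1184 at day 0 (day 0 minus day 6 0.51, FDR 3.14e-09, authors' deposited table). The 315 kb region that holds *Dppa3* had a difference of 0.62 (FDR 2.97e-43, authors' deposited table), and H3 over a 275 kb region there had 0.31 (FDR 6.41e-29), so H3 moved with it. *Sycp3* (0.18, FDR 0.00382) and *Sycp1* (0.19, FDR 0.0479) were lower at day 6 by less in the authors' deposited table. *Dazl* (-0.22, FDR 0.0616) and *Stra8* (-0.21, FDR 0.0542) had the other sign, which is more H3.3 at day 6, without passing in the authors' deposited table. For H3, *Dppa3* was the 1 of 4 regions that passed, beside 25.8% of 6618 regions (16.6% higher at day 0), in the authors' deposited table. A table of this kind for H3.3K27me3 was not analysed here.

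**Figure D4:**
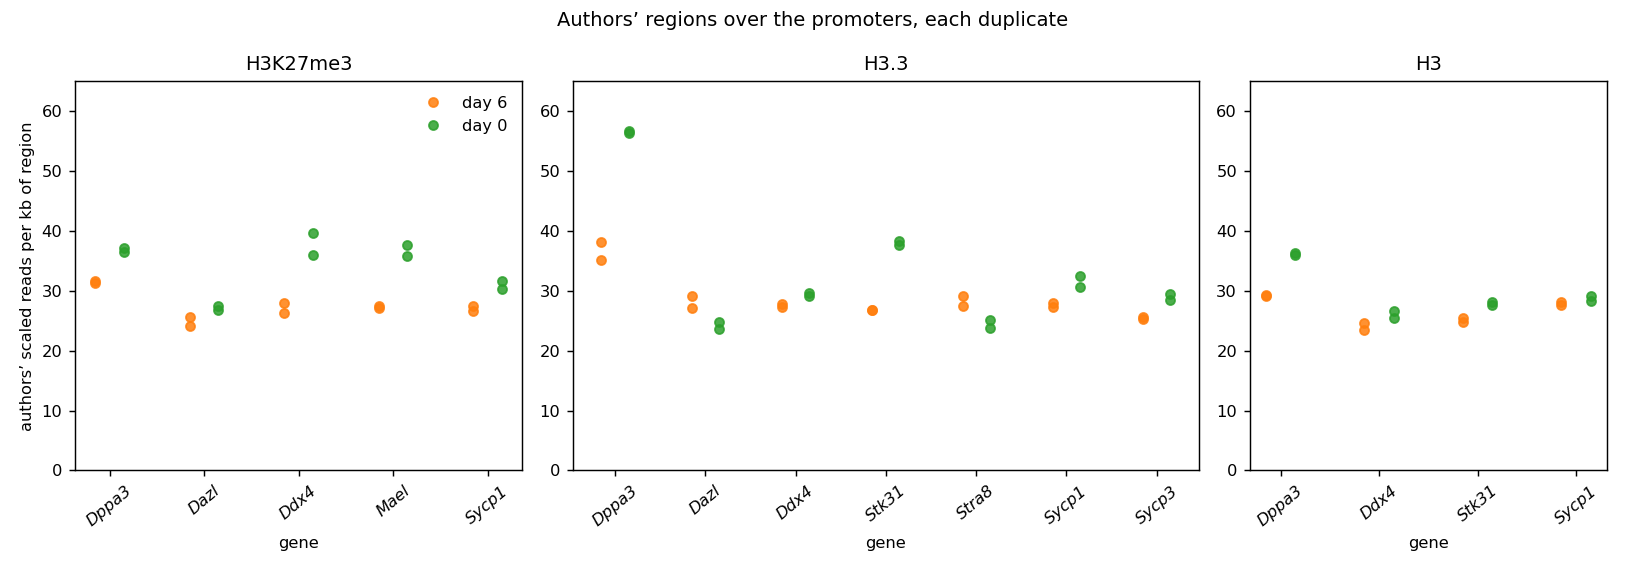
Scaled reads per kb of region in the authors' regions over the promoters, for H3K27me3, H3.3 and H3, with each duplicate of day 6 (left) and day 0 (right) as a point and the y axis from 0. H3K27me3 over *Ddx4* and *Mael* and H3.3 over *Stk31* and *Dppa3* lie lower at day 6 with no overlap, and H3.3 over *Dazl* and *Stra8* lies higher at day 6.

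Set beside the RNA, the 4 genes marked by H3.3K27me3 and H3K27me3 at day 0 (*Ddx4*, *Mael*, *Sycp1* and *Dppa3*) were transcribed at that stage, at 28.2, 1.86, 3.91 and 23.2 CPM in the wild-type mean of 2019. In the 1 wild-type day 0 library of 2020 they stood at 83.5, 27.8, 16.4 and 22.2 CPM, with each year scaled on its own. H3K27me3 over their regions was lower at day 6 in the authors' deposited table, and at day 6 their RNA was lower too in 2020 (changes of -2.26, -2.03, -2.93 and -6.72). In 2019 *Mael* was higher at day 6 (0.75, the call lost in 6 of 12 alternatives), and *Sycp1* was not called. *Stra8*, with no filtered K27me3 peak on either day, was the gene that rose in every line. In wild-type cells of 2020 *Dazl* (-1.24), *Stk31* (-1.72), *Sycp3* (-6.37) and *Tex101* (-2.61) fell as well, and *Taf7l* was not called. None of these other genes had a filtered peak in both duplicates for either K27me3 antibody on either day. With all MACS2 calls in place of the filtered lists, H3K27me3 marked 8 of the 10 promoters at day 0, beside 27.5% of all genes. These included *Dazl*, *Stk31*, *Sycp3* and *Taf7l*, so whether genes that fell count as unmarked depends on the peak list used. The genes are few, and no test was made of a link between mark and RNA.

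Other germline genes gave a wider frame. Of 25 meiotic prophase genes tested in 2019, 9 rose and 7 fell at day 3 against day 0, and 2 rose and 11 fell at day 6 against day 3 (median changes -0.19 and -0.57, beside 0.06 and -0.01 over all genes). Over all genes 37.6% rose and 33.8% fell at the first of these steps and 29.4% rose and 27.9% fell at the second, so the meiotic counts at day 3 against day 0 lie near the background. *Rec8*, the meiotic cohesin subunit, had 256 ± 6.24 CPM at day 3, against 20.02 ± 3.02 CPM at day 0 (SD, n = 2 each; log2 change 3.70, edgeR adjusted p = 7.07e-12). *Sycp2* (2.36) and *Brdt* (3.16), a testis bromodomain protein, rose with it. At day 6 against day 0 in wild-type cells of 2020, 4 of 31 rose and 21 fell (median -1.05, beside 0.08 over all genes, of which 36% rose and 34.8% fell), with a change of 4.92 for *Rec8* and of -6.64 for *Hormad1*, of the meiotic chromosome axis. *Rec8* thus rose alongside *Stra8*, and *Hormad1* fell alongside *Sycp3*.

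The same shares over all genes are the background of the lists that follow. Of the piRNA and germ granule genes, 5 of 14 rose and 5 fell at day 3 against day 0, near the 37.6% and 33.8% over all genes, 10 fell at day 6 against day 3, and 1 of 17 rose and 11 fell at day 6 in wild-type cells of 2020 (median -1.35). *Tdrd12*, a piRNA pathway Tudor protein, had 1.34 CPM at day 6, against 65.0 CPM at day 0, in 2020 (-5.60), and *Piwil2*, an Argonaute protein that binds piRNAs, had 2.34 CPM, against 49.3 CPM (-4.40). Primordial germ cell factors mostly fell, with 13 of 15 down and 2 up at day 3 against day 0 and 14 of 16 down in 2020 (median -2.29). *Prdm14*, a germ cell specifier that stem cells also use, had 0.194 CPM at day 6, against 32.4 CPM at day 0 in 2020. Of the genes for late sperm cells, 4 of 6 rose at day 3 against day 0 and 2 rose and 1 fell in 2020, and of the oocyte genes 2 of 6 rose and 3 fell at day 3, while 2 of 8 rose and 4 fell in 2020. *Sohlh1*, a germ cell transcription factor, had 6.06 CPM at day 3, against 0.462 CPM at day 0 (3.83), and *Ooep*, of the egg cortex, had 10.2 CPM at day 3, against 98.99 CPM at day 0 (-3.28), in 2019.

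Of 23 genes known to hold germline promoters silent and tested in 2019, 4 rose and 17 fell at day 3 against day 0, beside 37.6% and 33.8% of all genes. Of 24 tested in 2020, 3 rose and 17 fell at day 6 against day 0, beside 36% and 34.8% (medians -0.51 and -0.81). *Dnmt3l*, a cofactor of DNA methyltransferases, had 20.6 CPM at day 3, against 298 CPM at day 0 (-3.85), and *Dnmt3b*, a de novo DNA methyltransferase, had 58.4 CPM, against 381 CPM (-2.71). *Yaf2*, a subunit of variant Polycomb complexes, rose by 2.43. Of 17 genes of the retinoic acid route, 13 rose and 4 fell at day 3 against day 0, and 11 rose and 4 fell at day 6 in 2020 (medians 4.41 and 3.97), beside the same shares of all genes. *Cyp26a1* and *Cyp26b1*, which degrade retinoic acid, had 1310 and 696 CPM at day 3, against 1.34 and 0.796 CPM at day 0. *Rec8*, which retinoic acid is also known to induce, rose by 4.91 ± 0.13 in H3.3K27A cells, 4.22 ± 0.13 in knockout cells and 4.92 ± 0.18 in wild-type cells.

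Over the 9 group means, *Stk31*, *Sycp1* and *Ddx4* had the most alike profiles among the 10 genes, with Pearson's r of 0.99 for *Stk31* with *Sycp1*, 0.98 for *Ddx4* with *Stk31* and 0.97 for *Ddx4* with *Sycp1* (log2 of CPM plus 0.5). The points share days, years and scaling, so these values only describe. Among all genes, the profiles most like *Ddx4* were those of *Gm12504*, *Mov10l1* and *Tuba3a* (r = 0.99, 0.99 and 0.98), those most like *Sycp1* were *Boll*, *Stk31* and *Tuba3a* (0.99 each) and those most like *Stra8* were *Nfix*, *Casp8* and *Shisa4* (0.99 each). *Dazl* had its nearest match in *Plekhg4* (0.97), *Mael* in *Gpbp1* (0.96), *Sycp3* in *Cstf3* (1.00), *Dppa3* in *Fam184b* (0.99) and *Taf7l* in *Kptn* (0.96). *Stra8* ran against *Ddx4* (r = -0.54) and *Dppa3* (r = -0.81).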

How the data were processed

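RNA was made into libraries with a directional poly(A) kit per the labels' protocols, and per the submitters' processing notes STAR 2.5.2a aligned reads to mm10 and HTSeq counted them by gene. Whether counting used strand is not given in the sources used here. The deposited count tables hold raw counts, and rows that name no gene were left out (reads outside genes 11.3 to 43.3%, ambiguous reads 7.40 to 11.9%). Genes were kept with edgeR's filterByExpr (smallest count 10), scaled by TMM within each year and tested with edgeR 4.0.16 (quasi-likelihood test, limma 3.58.1, R 4.3.3), with Benjamini-Hochberg adjustment over all genes and a threshold of 0.05. One fit covered each year, and a further fit covered both years for the difference between them. DESeq2 1.42 was the alternative test. The steps were tested on simulated data first. Nothing says that duplicate RNA libraries came from separate cultures, so the p-values speak of the spread among these samples alone, which may be technical. Counting intervals are 95% and cover counting error only.

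Peaks were called with MACS2 2.2.6 per the file headers, with no control library, a p cutoff of 0.01, a largest gap of 5000 bp and a smallest length of 1000 bp. The deposited peak lists give a fold enrichment (the ratio of pileup to the genome-wide mean), a pileup signal and a −log10 p per peak, and how the authors filtered them is not given in the sources used here. The authors' deposited tables of regions give a log2 difference, a scaled read signal per duplicate and p-values, from DiffBind per the submitters' processing notes, and their deposited RNA table gives log2 changes and p-values from DESeq2. A promoter peak had to overlap by 1 bp a window of 1 kb either side of a start site. Sequences and start sites are RefSeq's on GRCm38.p6. Other tools were Python 3.11.15, pandas 2.3.3, numpy 2.4.6 and matplotlib 3.10.9.

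The 10 genes, the companion lists and the marker lists were chosen with earlier results of these data known. The 10 genes are given in every comparison, and up to 3 genes per companion list are those called with the largest change and at least 1 CPM in the higher group.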

Additional observations from a re-analysis of the deposited data

Results flagged for a closer look

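A set of 11 differences between changes passed an interaction term in edgeR, and each is given as its value (log2). In H3.3K27A cells the rise of *Stra8* from day 0 to day 6 differed from that in wild-type cells by -1.47 and from that in knockout cells by -1.34. The change of *Dazl* differed by -0.84 between H3.3K27A and knockout cells, a call lost in 9 of 17 alternatives. Between wild-type cells of 2020 and 2019 the change differed by -4.25 for *Dppa3*, -3.26 for *Dazl*, -2.79 for *Mael*, -2.77 for *Sycp3*, -2.52 for *Sycp1*, -1.60 for *Stk31*, -1.56 for *Ddx4* and -1.41 for *Stra8*. Year and batch cannot be told apart in these 8. No group held 4 or more libraries, so no library was tested for standing apart from its group.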

How the results depend on the processing

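Of 2597 values for single genes under an alternative, 2479 stayed on the same side of the threshold, 39 lost the call, 79 gained it and 0 changed sign while called. Counts of called genes or of promoters with a peak moved in 72 of 314 cases. The shares of all genes called, given earlier, belong to the main fits and are no background for the counts of calls below. Nothing is concluded from those counts for the genes as a set. DESeq2 gave 3 calls for H3.3K27A against knockout at day 0, with no low-count filter 2. That filter setting gave 1 for knockout against wild type and 2 for H3.3K27A against wild type at day 6. A fit of all 17 libraries gave 1 and 2 in these, 2 for H3.3K27A against knockout at day 0 and 2 for the H3.3K27A against wild-type change. Same-numbered libraries showed no common direction of deviation over the groups (correlations -0.03 to 0.10 in 2019 and -0.47 to 0.20 in 2020). The -0.47, between knockout and wild-type libraries of day 6, means that opposite numbers deviated together there. A pairing or batch across numbers at day 6 is thus not excluded. With the replicate block, H3.3K27A against wild type at day 0 and the H3.3K27A against knockout change gave 1 call each. A crossed block, chosen after seeing the data, gave 0 for knockout against wild type at day 6, 3 for H3.3K27A against knockout at day 6 and 1 at day 0. Without both day 6 knockout libraries, also chosen after seeing the data, there were 10 calls for wild type day 6 against day 0, 1 for knockout against wild type at day 0, 6 and 3 for H3.3K27A against wild type at day 0 and day 6, 5 for H3.3K27A against knockout at day 0 and 4 for the H3.3K27A against wild-type change. The cause was not tested.

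With 1 library left out, 2019 gave 9 to 9 calls for day 3 against day 0 and for day 6 against day 3, and 5 to 7 for day 6 against day 0. Day 6 against day 0 gave 8 to 9 in H3.3K27A cells, 8 to 9 in knockout and 9 to 10 in wild-type cells. H3.3K27A against wild type ranged over 0 to 6 at day 0, 0 to 3 at day 6 and 1 to 4 for the change, H3.3K27A against knockout over 0 to 5, 1 to 4 and 1 to 4, and knockout against wild type over 0 to 1, 0 to 3 and 0 to 2. The year contrast gave 8 to 8.

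For promoters, the share of all genes at the same setting stands in brackets. An enrichment of at least 3 left 0 marked by H3.3K27me3 at day 6 (0.633%) and 1 at day 0 (2.1%). For H3.3 it left 0 and 1 (3.67% and 13.6%). For H3K27me3 it left 0 at day 6 (3.29%), and for H3 1 at day 0 (0.505%). A peak in at least 1 duplicate gave 2 for H3.3K27me3 at day 6 (12.8%) and 5 for H3.3 at day 6 (47.7%). It gave 3 and 9 for H3K27me3 at day 6 and day 0 (22.7% and 30%). For H3 it gave 1 and 4 (7.56% and 20.5%). All MACS2 calls gave 3 and 8 for H3K27me3 (19.7% and 27.5%), and a 2.5 kb window 1 for H3 at day 6 (2.75%). Single duplicates gave 1 to 2 at day 6 (5.3 to 10.3%) and 5 to 5 at day 0 (17.5 to 18.5%) for H3.3K27me3. For H3.3 they gave 3 to 5 and 4 to 5 (31 to 42.7% and 44.9 to 48.7%). For H3K27me3 they gave 2 to 2 and 6 to 7 (15.5 to 18.6% and 23.7 to 24.8%). For H3 they gave 0 to 1 and 2 to 4 (4.18 to 5.57% and 10 to 16%).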
